A study of Mus musculus with 14 samples.

Results

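The clustered histone genes were taken as all rows of the expression table whose symbol starts with Hist1h, Hist2h, Hist3h or Hist4h, the older mouse names of the histone genes that lie in tandem in the genome. The rule used names only and found 61 of the 56414 rows, among them 2 rows that join a pair of neighboring genes (Hist1h2ad // Hist1h3d and Hist2h2aa1 // Hist2h3c1) and 1 pseudogene (Hist3h2bb-ps). By the type in their name, 6 rows were of the linker histone H1, 15 of H2A, 17 of H2B (with the pseudogene), 9 of H3 and 12 of H4. The 2 joined rows held both an H2A and an H3 gene. The Hist1 cluster on chromosome 13 held 50 members, the Hist2 cluster on chromosome 3 held 8, the Hist3 cluster on chromosome 11 held 2, and Hist4h4 stood alone on chromosome 6.

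Histones are the proteins around which DNA is wound, and a cell that copies its DNA must make new histones at the same time. Most clustered histone genes have no intron, are transcribed mainly in S phase, and give mRNAs that end in a conserved stem-loop, bound by the protein Slbp, instead of a poly(A) tail. Some of these genes can also give longer, polyadenylated mRNAs, for instance in cells that have stopped dividing. Selection of poly(A) RNA, used for the libraries here, keeps mRNAs with a poly(A) tail.

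Bulk RNA-seq was performed on 14 mammary tumors of C57Bl/6 mice, with 1 library per tumor made from polyA RNA. M/D tumors (4 untreated, 4 NAM-treated) arose in the animal's own mammary gland, in females that received a pellet of 50 mg medroxyprogesterone acetate (MPA) at 6 to 9 weeks of age followed by 7,12-dimethylbenz[a]anthracene (DMBA) by gavage. AT3 tumors (3 untreated, 3 NAM-treated) grew from cells of the AT3 mouse mammary carcinoma line injected under the skin, and hence all came from 1 cell line. Mice were assigned to groups at a tumor size of 0.25 cm2, and treated mice drank water with 0.5% NAM (nicotinamide, a form of vitamin B3) for 10 days. The labels place NAM-treated M/D tumor 1 in experiment 2, the other M/D tumors in experiment 1 and all AT3 tumors in experiment 3.

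Values are normalized counts, that is, reads on a gene divided by a size factor of the tumor. Between 40936868 and 84178009 reads per tumor were recovered from them, of which 9926 to 65174 lay on the histone genes. NAM-treated M/D tumor 1 stood apart in the markers of precursor B cells, whose summed normalized count was 440262 in this tumor, against a median of 3878 in its group and a range of 2508 to 4022 in untreated M/D tumors. The sum of 12 mammary epithelium markers ranged from 9049 to 663135 in NAM-treated and from 327270 to 1047880 in untreated M/D tumors, and from 76958 to 111013 in AT3 tumors.

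The stem-loop is a feature that most members share beyond their name. The histone stem-loop, searched on the sense strand of the longest GENCODE transcript (GRCm38), was found in 39 of 61 members (63.93%) and in 172 of all 55450 genes (0.31%). The search fixed GG at the start, CTT and AG around the loop and CC at the end, and left the other letters free. The most frequent form was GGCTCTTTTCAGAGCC, in 20 members, and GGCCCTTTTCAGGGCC followed in 6. The first letters of the stem followed the histone type. All 28 stems of H1, H2A, H2B, H3 and joined rows began with GGCT, whereas 9 of the 11 stems of H4 genes began with GGCC and 2 with GGTC. The following sites are shown because they belong to genes described below, with the stem-loop in capitals and 5 flanking bases on each side in lower case.
Hist1h4c (chr13:23698084-23698458, minus strand): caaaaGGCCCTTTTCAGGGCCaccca
Hist1h4f (chr13:23551286-23551643, minus strand): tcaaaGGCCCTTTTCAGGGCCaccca
Hist1h4i (chr13:22040638-22041363, minus strand): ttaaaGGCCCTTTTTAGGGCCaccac
Hist1h2bb (chr13:23746734-23747223, plus strand): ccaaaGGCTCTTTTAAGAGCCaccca
Hist1h1c (chr13:23738804-23740366, plus strand): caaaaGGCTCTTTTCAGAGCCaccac
Coordinates are those of the genes in the deposited table, on mm10. In 20 members the annotated transcript ended within 100 bases of the stem-loop, as in Hist1h2bb (23 bases) and Hist1h4f (33 bases). In 19 members it ran on further, as in Hist1h4c (454 bases) and Hist1h1c (840 bases). The 22 other members, among them Hist2h2be and the most abundant one, Hist1h2bc, had no match in their transcript model.

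Promoters also differed by type. In the RefSeq promoter table (GRCm38.p6, 250 bases before to 50 after the start), an entry was found for 16 H2A, 14 H2B, 11 H4, 9 H3 and 6 H1 genes. The octamer ATTTGCAT, on either strand, lay in 6 of 14 H2B promoters (42.86%) and 6 of 16 H2A promoters (37.5%), in 0 promoters of the other types, and in 1.75% of 27025 promoters in all. The letters CCAAT, on either strand, lay in every H1, H2A, H2B and H3 promoter but in only 3 of 11 H4 promoters, against 37.92% of all promoters. One promoter of each kind is printed for genes that were lower in NAM-treated AT3 tumors, with CCAAT, ATTTGCAT and TATAAA in capitals on either strand.
Hist1h2bb (chr13:23746484-23746783, plus strand): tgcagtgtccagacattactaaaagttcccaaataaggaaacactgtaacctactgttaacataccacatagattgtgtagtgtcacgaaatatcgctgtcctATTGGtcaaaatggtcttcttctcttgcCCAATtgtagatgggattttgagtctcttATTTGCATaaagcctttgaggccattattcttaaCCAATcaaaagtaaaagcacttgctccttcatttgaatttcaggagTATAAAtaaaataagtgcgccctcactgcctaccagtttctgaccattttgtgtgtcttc
Hist1h4f (chr13:23551619-23551918, minus strand): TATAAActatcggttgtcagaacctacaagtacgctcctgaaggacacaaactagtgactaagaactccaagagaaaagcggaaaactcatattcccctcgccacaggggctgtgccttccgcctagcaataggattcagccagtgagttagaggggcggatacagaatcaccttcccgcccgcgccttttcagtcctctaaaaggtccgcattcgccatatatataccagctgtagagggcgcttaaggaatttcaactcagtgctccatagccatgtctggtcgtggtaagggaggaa
The Hist1h2bb window holds the octamer and 3 matches to CCAAT on its 2 strands, whereas the Hist1h4f window holds neither. TATAAA stands near the start of transcription in Hist1h2bb and at the far end of the window in Hist1h4f. These matches describe the letters in the windows and not binding.

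A few members held most of the reads. Hist1h2bc and Hist1h1c, which code for an H2B and a linker histone, took 70% of the reads on all members over the 14 tumors (52.1% to 77.1% per tumor), and the 10 most abundant members took 91.9%. Per kilobase of the longest transcript, the mean normalized count over M/D tumors was 6019 for Hist1h2bc, 5086 for Hist1h1c, 4271 for Hist2h2aa1 // Hist2h3c1, 1046 for Hist2h2aa2, 923 for Hist1h4i and 671 for Hist1h4k. The same mean over AT3 tumors was 14659 for Hist1h2bc, 8247 for Hist1h1c, 4740 for Hist2h2aa1 // Hist2h3c1, 3867 for Hist1h4k and 2558 for Hist1h4i. The joined row was divided by the transcript length of only 1 of its genes, so that its value per kilobase and its rank are uncertain. Thus, the order of Hist1h4i and Hist1h4k differed between models, whereas Hist1h2bc and Hist1h1c led in either model. At the other end, Hist1h2aa and Hist1h2ba were listed at 0 in all 14 tumors. Members are much alike in sequence. Of the 61, 55 shared at least 1 stretch of 75 bases, the length of a read, with another gene, and in 23 such stretches made up more of the transcript than stretches of its own. Hist2h2aa2 shared all of its stretches and Hist2h2be none. How reads that match several genes were counted is not given in the sources used here, so that values of near-identical members are uncertain.

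**Figure D1:**
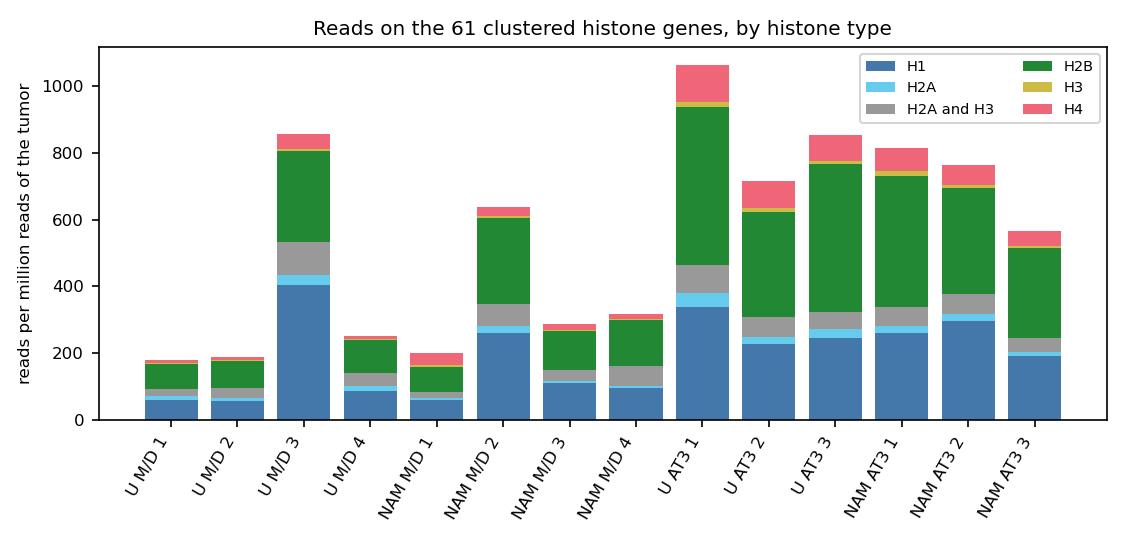
Reads on the 61 clustered histone genes per 1000000 reads (RPM) of each tumor (y axis), stacked by histone type, for untreated (U) and NAM-treated (NAM) M/D and AT3 tumors (x axis). Untreated M/D tumor 3 (856) and NAM-treated M/D tumor 2 (638) rise above the other M/D tumors (181 to 318), whereas AT3 tumors range from 566 to 1065.

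Taken as a share of a tumor's reads, the histone genes varied widely among M/D tumors. Untreated M/D tumors 1 to 4 had 181, 189, 856 and 251 histone reads per 1000000 reads (RPM), and NAM-treated M/D tumors 1 to 4 had 199.9, 638, 287 and 318. The groups overlapped, with tumor 3 highest among the untreated and tumor 2 among the NAM-treated, and the means were 369 ± 326 and 361 ± 192 (SD, n = 4 each). The ratio of the means (NAM-treated over untreated) was 0.977. It was 1.74 without untreated tumor 3, 0.726 without NAM-treated tumor 2 and 1.12 without NAM-treated tumor 1, so that its direction turned with single tumors. Untreated AT3 tumors had 1065, 718 and 853 histone RPM, and NAM-treated AT3 tumors had 814, 765 and 566. Here too the groups overlapped (879 ± 175 against 715 ± 131, SD, n = 3 each), and the ratio was 0.814. Reads on H4 genes alone amounted to 113, 81.7 and 76.2 RPM in untreated AT3 tumors. In NAM-treated AT3 tumors they amounted to 67.8, 61.7 and 44.0 RPM, so that the groups did not overlap. Nor did they for all members without the 3 with most reads (267, 212 and 191 against 182, 162 and 123 RPM). For H1, H2A, H2B and H3 genes the groups overlapped. In these bulk tumors, changes in the cells in S phase, in histone mRNA per cell and in the histone mRNA kept by selection of poly(A) RNA cannot be told apart. The trend with transcript length described below was not removed from these shares of reads.

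Whether NAM changed single histone genes in M/D tumors was addressed by limma on log2(normalized count + 1), and a gene was called when its p before adjustment did not exceed 0.05 and its level changed 1.5-fold or more. Of the 61 members, 46 passed the filter on low values (a group mean of at least 10). Hist2h2be was called higher in NAM-treated M/D tumors and 0 members were called lower, or 2.17% and 0% of those tested, against 3.03% and 3.19% of all 21700 genes tested (6.22% in either direction). By limma, 6.71% of all genes had an unadjusted p of at most 0.05. After adjustment over all genes 0 members passed at 0.05 (0.00461% of all genes did). The log2 fold change was above 0 in 26 members and below 0 in 20 (48.9% of all genes were below 0), with a median of 0.09 against 0.01 for all genes. In 0 of the 46 members were the groups free of overlap, against 2.43% of all genes upward and 2% downward.

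Hist2h2be codes for an H2B and shares no stretch of read length with another gene. Its normalized counts were 351, 474, 525 and 287 in untreated and 710, 504, 659 and 924 in NAM-treated M/D tumors. NAM-treated tumor 2 lay below the highest untreated tumor, and the groups overlapped through these tumors alone. The log2 fold change was 0.78 (SE 0.29), with an adjusted p = 0.734 over all genes (limma). The call was lost when untreated tumor 1 or 4, or NAM-treated tumor 3 or 4, was left out, with log2 fold changes of 0.62 to 0.80. In AT3 tumors the same gene stood at 651, 615 and 592 without and at 595, 419 and 483 with NAM, a log2 fold change of -0.32 (SE 0.23) that was not called.

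**Figure D2:**
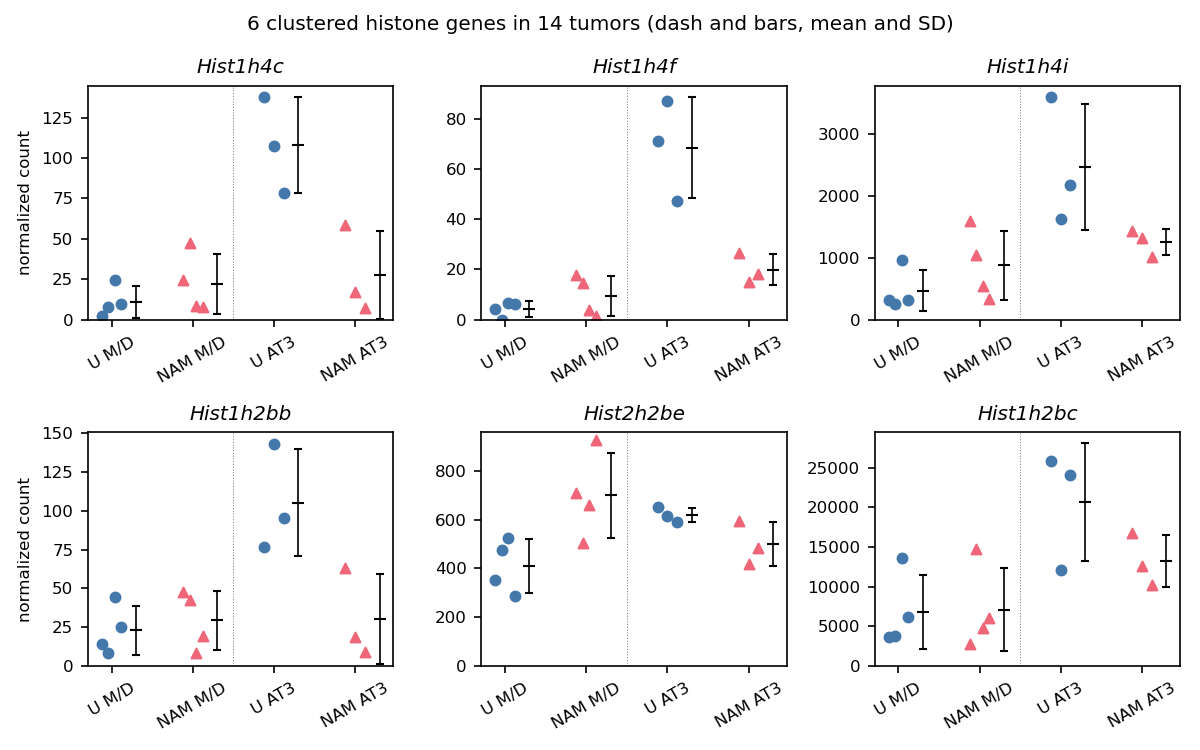
Normalized counts (y axis) of 6 clustered histone genes in each of the 14 tumors (circles, untreated; triangles, NAM-treated), with the mean and SD of each group. The dotted line parts M/D from AT3 tumors, which were normalized apart. Among M/D tumors the mean of Hist2h2be is higher in the NAM-treated group (699 against 409), with overlap, whereas Hist1h4c, Hist1h4f and Hist1h2bb are higher in every untreated than in every NAM-treated AT3 tumor.

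The abundant members showed what kept the other M/D values apart. Hist1h1c had normalized counts of 3382, 3211, 22100 and 5780 in untreated and 3277, 15520, 5476 and 4728 in NAM-treated M/D tumors. Hist1h2bc had 3660, 3811, 13637 and 6161 in untreated and 2774, 14698, 4844 and 6076 in NAM-treated tumors. Both were high in untreated tumor 3 and NAM-treated tumor 2, and their log2 fold changes were -0.02 (SE 0.69) for Hist1h1c and 0.01 (SE 0.58) for Hist1h2bc. The linker histone gene Hist1h1d was at 652 in untreated tumor 3 and between 24.9 and 71.7 in the other untreated tumors. Untreated tumor 3 had the highest value of 24 of the 46 members, NAM-treated tumor 1 of 11 and NAM-treated tumor 2 of 7. All 4 H1 genes tested were highest in untreated tumor 3. Without that tumor, 6 of 45 members were called higher (3.25% of all genes were) and the median log2 fold change was 0.60. Of these, Hist1h4k then had a log2 fold change of 1.80 and Hist1h4i of 1.30, against 1.13 (SE 0.65) and 0.88 (SE 0.59) with all tumors. Within experiment 1, that is, without NAM-treated tumor 1, 2 of 44 members were called higher and 0 lower (2.85% and 2.33% of all genes), with a median of 0.15. Without untreated tumor 1 or 2 or NAM-treated tumor 2, the median was -0.13, -0.07 and -0.14. Thus, in M/D tumors the sign of the median over the histone genes changed with single tumors.

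In AT3 tumors, histone genes were lower with NAM, and 9 of the 18 genes called were H4 genes. Of 56 members tested, 18 were called lower and 0 higher (32.1% and 0%, against 10.9% and 12.2% of all 19281 genes tested). The log2 fold change was below 0 in 54 members, against 52.5% of all genes, and its median was -0.85 against -0.05 for all genes. The exceptions were Hist1h2af (0.42, SE 0.94) and Hist1h3g (0.04, SE 0.36). In 18 members every NAM-treated tumor lay below every untreated tumor, against 11% of all genes. After adjustment over all genes, however, 0 members passed at 0.05 by limma (0.00519% of all genes did), and the smallest adjusted p was 0.166. The edgeR quasi-likelihood test called 16 members lower at the unadjusted threshold (11.1% of all genes), and 0 at an adjusted p of 0.05. The DESeq2 test called 20 lower (12.5% of all genes). By DESeq2, 5 of the 56 members had an adjusted p of at most 0.05, as had 1919 of the 19281 genes, a share of all genes no lower than that of the members. The number called lower was 6 without untreated AT3 tumor 1 and 9 without NAM-treated AT3 tumor 3, while the share of all genes called lower was 5.08% and 3.69%. In both cases 51 of 56 members were below 0.

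H4, part of the core of the nucleosome with H3, is made from several genes that code for the same protein. Of 12 H4 genes, 9 were called lower in NAM-treated AT3 tumors (10.9% of all genes were). All 12 were below 0 (52.5% of all genes were), with a median log2 fold change of -1.14. The trend with transcript length described below was not removed here, and after its removal 2 of the 12 were called lower (7.89% of all genes). Hist1h4c had normalized counts of 138, 108 and 78.1 without and 58.3, 16.9 and 7.43 with NAM, and fell by 2.35 on the log2 scale (SE 0.67, adjusted p = 0.166, limma). Hist1h4f had 71.0, 87.3 and 47.2 without and 26.7, 15.1 and 18.2 with NAM, and fell by 1.72 (SE 0.44, adjusted p = 0.166). In both genes all NAM-treated tumors lay below all untreated tumors. The more abundant Hist1h4i had 3595, 1632 and 2165 without and 1425, 1323 and 1019 with NAM, a decrease by 0.91 (SE 0.31, adjusted p = 0.169). Again the groups did not overlap, although NAM-treated tumor 1 came close to untreated tumor 2. Hist1h4b, Hist1h4j and Hist1h4h fell by 1.62, 1.24 and 1.05 (log2), and Hist1h4d, Hist4h4 and Hist1h4k by 1.55, 1.37 and 0.71.

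The other types had fewer calls, where 10.9% of all genes were called lower. Of 16 H2B rows, with the pseudogene Hist3h2bb-ps, 4 were lower (median -0.66), and of 11 H2A genes 2 (median -0.83). Of 9 H3 genes 1 was lower (median -0.71), of 6 H1 genes 1 (median -0.62) and of the 2 joined rows 1. Hist1h2bb, an H2B gene, had normalized counts of 76.8, 143 and 95.2 without and 63.2, 18.8 and 9.09 with NAM, and fell by 2.13 on the log2 scale (SE 0.65, adjusted p = 0.166, limma). Hist1h2bm fell by 1.60 (SE 0.54) and Hist1h2bg by 1.00 (SE 0.32). The joined row Hist1h2ad // Hist1h3d had 614, 374 and 457 without and 260.0, 279 and 201 with NAM, a decrease by 0.95 (SE 0.28). The groups of this row were apart in every tumor. Among the most abundant members, Hist1h2bc (-0.60, SE 0.33), Hist1h1c (-0.40, SE 0.30), Hist2h2aa1 // Hist2h3c1 (-0.57, SE 0.29) and Hist2h2aa2 (-0.94, SE 0.53) were below 0 and were not called. Calls were also spread over the forms of the transcript, with 7 of 19 members lower where the transcript ended within 100 bases of the stem-loop, 8 of 19 where it ran on, and 3 of 18 without a stem-loop. The median log2 fold changes of these forms were -0.94, -0.89 and -0.63. Untreated AT3 tumor 1 had the highest value of 32 members, untreated tumor 2 of 19 and untreated tumor 3 of 4. Of 5 endothelial markers, 4 were called higher in NAM-treated AT3 tumors (summed normalized count 4946 to 7312, against 3655 to 4356 in untreated tumors), where 12.2% of all genes were. After removal of the trend with length described below, 3 of the 5 were called higher (7.89% of all genes). Fibroblast markers ranged from 111757 to 306998 and from 70466 to 219657. Their part in the histone result was not tested.

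**Figure D3:**
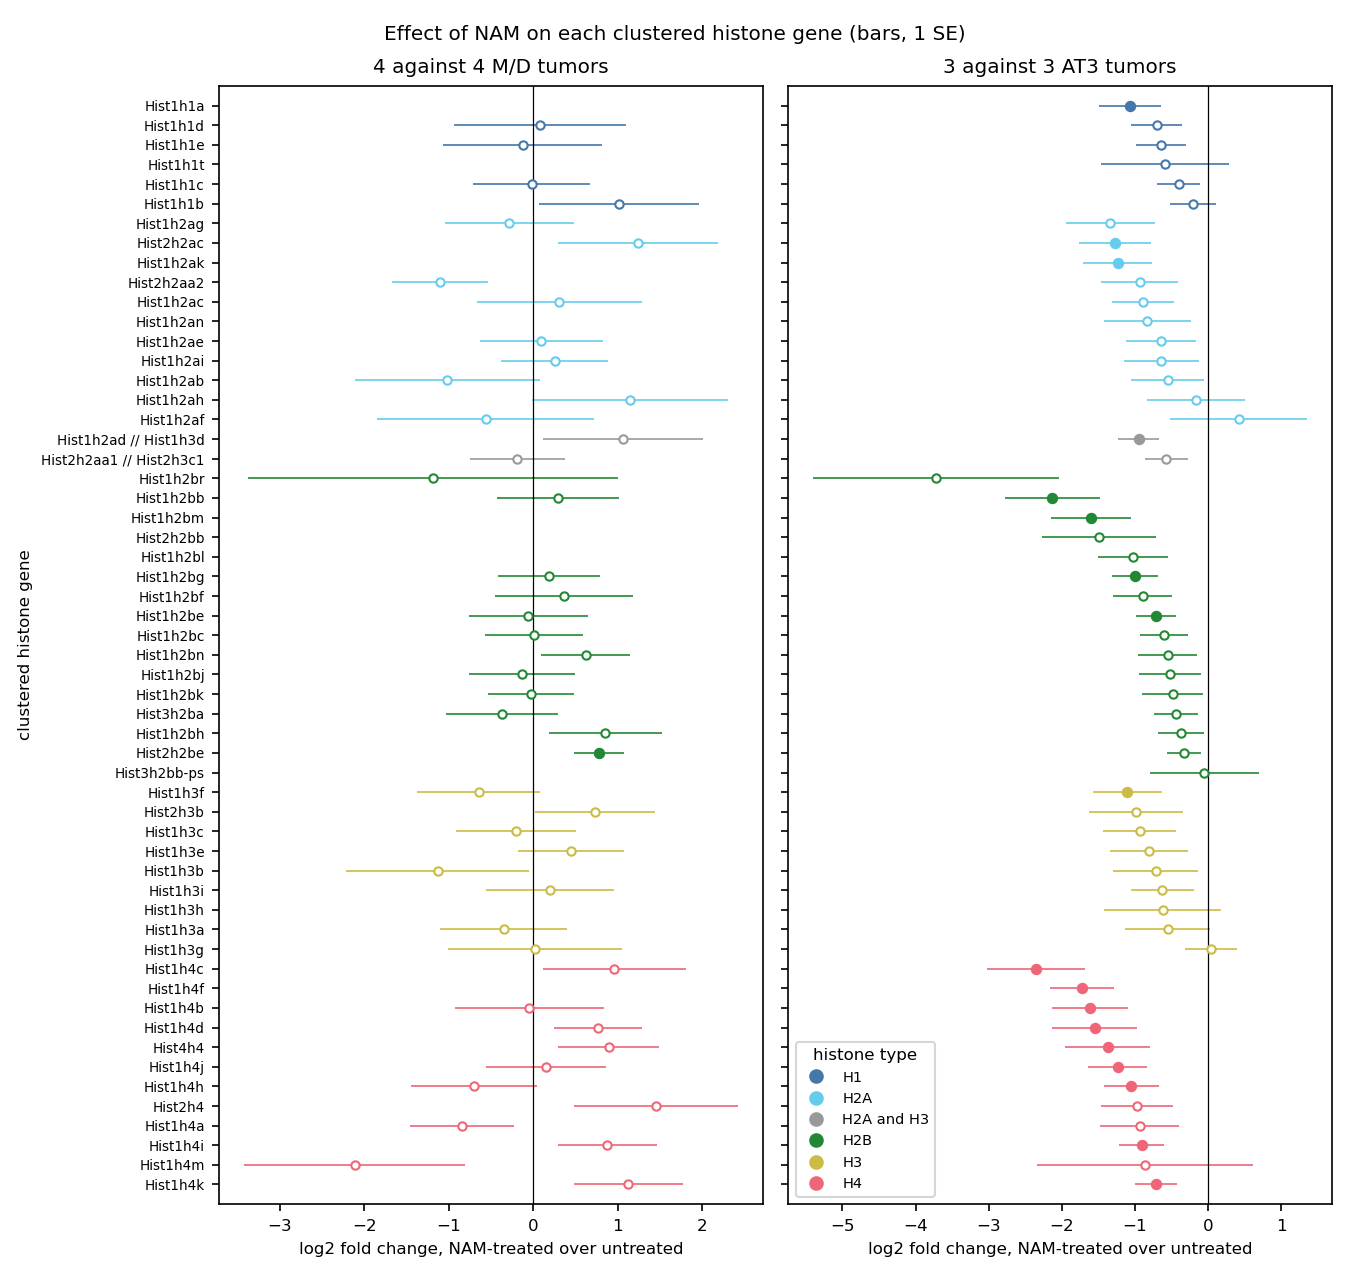
Log2 fold change of NAM-treated over untreated tumors (x axis) for each of the 56 clustered histone genes tested in AT3 tumors (y axis, grouped by histone type), in M/D tumors on the left and AT3 tumors on the right. Bars are 1 SE, and filled points passed an unadjusted p of 0.05 and a fold change of 1.5. In AT3 tumors 54 of 56 genes lie left of 0 and 9 of 12 H4 genes are filled, whereas M/D values scatter to both sides and 1 gene is filled. Of all genes tested in AT3 tumors, 52.5% were below 0 and 10.9% were called lower.

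The effect of NAM in AT3 tumors was then set against that in M/D tumors by an interaction term over all 14 tumors. The difference (AT3 effect minus M/D effect) was called lower in 8 of 56 members and higher in 0 (against 6.97% and 7.9% of all 22710 genes). It was below 0 in 49 members (51.4% of all genes), with a median of -1.08. The 5 members with the smallest p were Hist2h2be (-1.10, SE 0.39), Hist1h4d (-2.32, SE 0.83), Hist1h4c (-3.31, SE 1.20), Hist4h4 (-2.26, SE 0.87) and Hist1h4i (-1.79, SE 0.76), and the smallest adjusted p was 0.246 (limma). Of 12 H4 genes, 6 were called. Only 46 of the 56 members passed the filter on low values in M/D tumors. Hist1h4f, among those called, did not, with means of 4.34 in untreated and 9.43 in NAM-treated M/D tumors. Hist1h4d, for example, had normalized counts of 15.6, 12.0, 12.0 and 10.5 in untreated and 27.2, 40.2, 11.0 and 18.5 in NAM-treated M/D tumors. In AT3 tumors it had 143, 167 and 52.9 without and 65.6, 39.5 and 18.2 with NAM. The groups overlapped in either model. Of the 56 members, 16 were called lower without untreated M/D tumor 3 (6.46% of all genes were). The number was 3 without NAM-treated AT3 tumor 2 or 3 (4.28% and 3.84% of all genes). It was 4 without untreated M/D tumor 1 or NAM-treated M/D tumor 2 (5.41% and 7.09%). It was 5 without untreated M/D tumor 2, NAM-treated M/D tumor 1 or untreated AT3 tumor 1 (6.3%, 7.32% and 5.54%).

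Histone genes are short, and in AT3 tumors the effect of NAM followed transcript length across the whole genome. The longest transcript had a median of 528 bases for the members and 3118 bases for all genes tested in AT3 tumors, and 48 of 61 members were under 1000 bases. Across 16429 genes, Spearman's rho between length and log2 fold change was 0.59 in AT3 tumors (0.34 with the median transcript of a gene), whereas it was -0.04 across 18460 genes in M/D tumors. Genes share libraries, so that these correlations are descriptions. Other genes under 500 bases had a median log2 fold change of -0.99 in AT3 tumors, and 36.6% of them were called lower. The 22 histone genes of this length had a median of -0.77, and 5 were called lower. From 500 to under 1000 bases, other genes had a median of -0.80 (44.1% lower) and 21 histone genes one of -0.94 (9 lower). Thus, the medians of short histone genes lay near those of other short genes. Among the longer ones, 7 histone genes of 1000 to under 2000 bases had a median of -0.64 against -0.43 for other genes, and 5 of 2000 to under 4000 bases one of -0.89 against 0.00. The only member above that length was Hist1h1d, at -0.70 (SE 0.35), where other genes had a median of 0.52. Among the 56 members themselves the rho between length and fold change was 0.00.

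**Figure D4:**
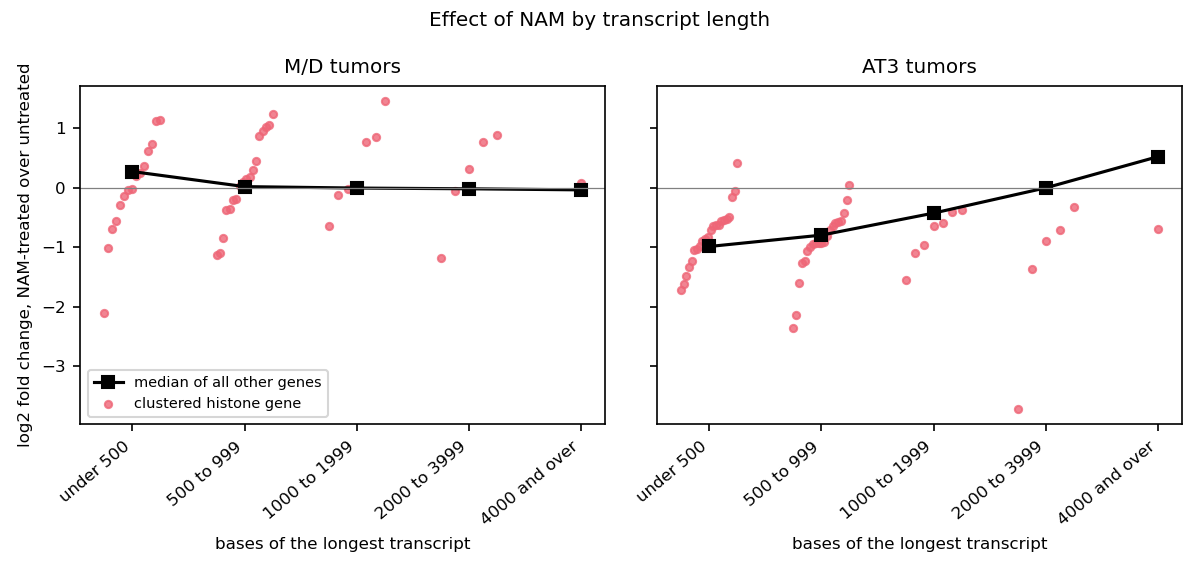
Log2 fold change of NAM-treated over untreated tumors (y axis) by class of the longest transcript in bases (x axis), for M/D and AT3 tumors. Squares are the median of all other genes and each dot is a clustered histone gene. In AT3 tumors the squares rise from -0.99 for genes under 500 bases to 0.52 for those of 4000 bases and over, and most histone genes lie under 1000 bases.

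A spline on length and GC content was then fitted in each tumor and subtracted. In AT3 tumors this brought the share of members called lower near that of all genes. Of 56 members, 4 were called lower (7.14%, against 7.89% of all genes). Among the 56, 37 were below 0 (49.4% of all genes were), with a median of -0.21 against 0.01 for all genes. Hist1h4c (-1.61), Hist1h2bb (-1.38) and Hist1h4f (-0.97) remained lower, and the long Hist1h1d (-1.18) was now called as well. Of the 12 H4 genes, 2 were called and 11 stayed below 0, with a median of -0.56. Hist1h4i (-0.21), Hist1h4h (-0.29) and Hist1h2bg (-0.26) were no longer called, and Hist1h2bc (0.08) was above 0. In the interaction, 4 members were still called lower and 0 higher (5.74% and 4.97% of all genes were). There, 43 of 56 members were below 0 (54.8% of all genes were), with a median of -0.66 against -0.10 for all genes. In M/D tumors the removal left Hist2h2be higher (0.87) and made Hist2h2aa2 lower (-0.93), where 2.44% of all genes were called higher and 3.17% lower, and 16 of 46 members were below 0 (40.8% of all genes). Whether the trend with length itself came from RNA quality, from the library or from the tumors was not tested.

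Whether histone genes moved with proliferation was described by genes of DNA replication and of mitosis. In AT3 tumors, 5 of 32 replication genes were called higher with NAM and 1 lower (median log2 fold change 0.07), and 5 of 24 mitosis genes were called higher and 0 lower (median 0.35), where 12.2% of all genes were called higher and 10.9% lower. The replication helicase genes Mcm2, Mcm3 and Mcm4 rose by 0.73, 0.69 and 0.75 (log2), and Uhrf1, which maintains DNA methylation at the fork, by 0.85. Dut, which keeps uracil out of DNA, fell by 0.78. Among mitosis genes, the transcription factor gene Foxm1 rose by 1.58 (SE 0.40), with normalized counts of 239, 593 and 463 without and 764, 1465 and 1591 with NAM. Cenpe, a kinetochore motor, rose by 1.68, Hmmr, a spindle component, by 0.80 and Kif20a, a motor of cell division, by 0.66. The proliferation markers Mki67 (0.38, SE 0.36) and Pcna (-0.35, SE 0.29) were not called. Over the whole lists, 20 of 24 mitosis genes and 17 of 32 replication genes were above 0 (47.5% of all genes were), whereas 54 of 56 histone genes were below 0. These replication and mitosis genes lie on the same trend with length. After its removal 4 of 32 replication genes were higher and 1 lower, and 6 of 24 mitosis genes were higher and 1 lower. Of all genes, 7.89% were then called higher and 7.89% lower.

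As a level per tumor, the mean log2(normalized count + 1) of the histone genes was 7.33, 7.03 and 6.64 in untreated AT3 tumors and 6.63, 6.00 and 5.65 in NAM-treated AT3 tumors. The mitosis level was 11.41, 11.67 and 11.76 without and 11.89, 11.89 and 12.08 with NAM. The mitosis level parted the treatment groups, and the histone level just did so, so that no correlation over the 6 tumors is given. In the 8 M/D tumors Pearson's r between the histone level and the replication level was 0.03 (Spearman's rho 0.19), and it was -0.60 without NAM-treated tumors 1 and 4, the farthest from the median. For the mitosis level r was 0.08 (rho 0.21), and -0.45 without the same tumors. Untreated M/D tumor 3, with the highest histone level (6.57), had mitosis and replication levels of 11.09 and 10.77. NAM-treated M/D tumor 1, with the highest mitosis (12.80) and replication (12.64) levels, had a histone level of 5.63. The tumors with most histone reads were hence not those with the highest proliferation levels. These reads came from libraries of polyA RNA, which need not hold the histone mRNAs of S phase that lack a poly(A) tail. What share of those mRNAs was captured was not tested. Of the replication and mitosis genes, 0 were called in M/D tumors in either direction.

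**Figure D5:**
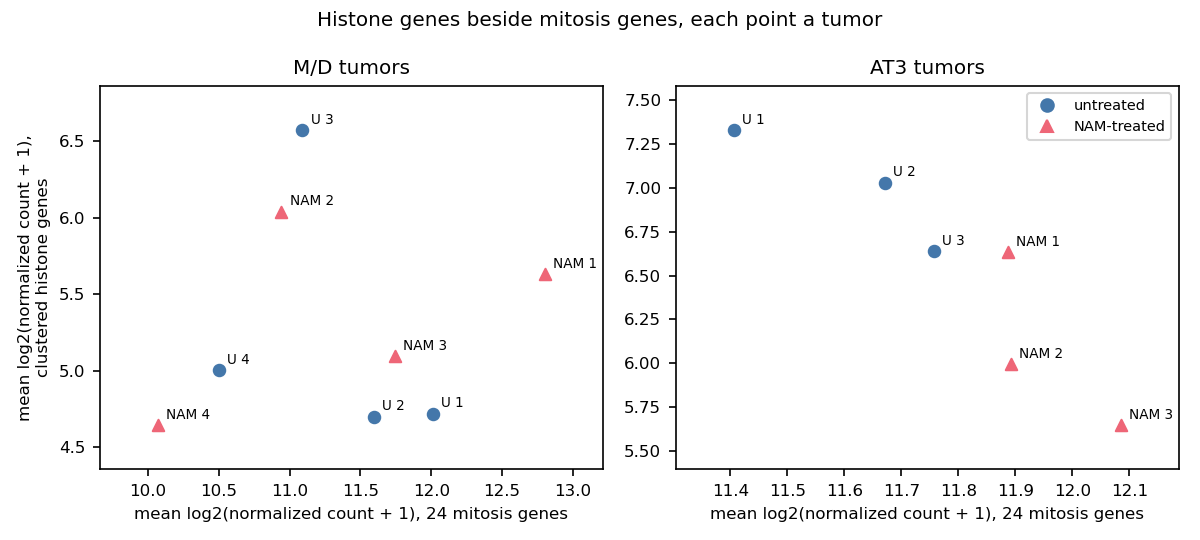
Mean log2(normalized count + 1) of the clustered histone genes (y axis; 46 genes in M/D and 56 in AT3 tumors) against that of 24 mitosis genes (x axis), each point a tumor (circles, untreated; triangles, NAM-treated). In AT3 tumors all 3 NAM-treated tumors lie to the right of and below the untreated ones, whereas the M/D tumors show no order, with untreated tumor 3 highest on the histone axis and NAM-treated tumor 1 farthest to the right.

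Genes that control histone mRNA were examined next. Of 18 such genes tested, 3 were called higher and 1 lower in NAM-treated AT3 tumors (median log2 fold change 0.12) and 0 in M/D tumors, against 12.2% and 10.9% of all genes called higher and lower in AT3 tumors. After removal of the trend with length the counts in AT3 tumors were 1 higher and 3 lower (7.89% of all genes each way), with a median of -0.07. Slbp, whose protein binds the stem-loop, stood at 2098, 1603 and 1983 without and 2022, 1590 and 1819 with NAM in AT3 tumors (log2 fold change -0.06, SE 0.21). In M/D tumors Slbp was at 2364, 2695, 1509 and 1761 without and at 7469, 2092, 2634 and 1395 with NAM, so that NAM-treated tumor 1 stood far above the others. Npat, the coactivator of histone gene transcription, had 927, 1281 and 953 without and 1361, 1918 and 2196 with NAM in AT3 tumors, and rose by 0.78 (SE 0.25, adjusted p = 0.167, limma). Every NAM-treated AT3 tumor lay above every untreated one for Npat, which is opposite to the histone genes. Zcchc11, a terminal uridylyltransferase, and Cpsf2, a subunit of the cleavage complex, rose by 1.07 and 0.73, and Lsm1, of the decay machinery, fell by 0.90. After removal of the trend with length, the log2 fold change of Npat was 0.39, under the fold required for a call.

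Replacement histones can also be made outside S phase, mostly from polyadenylated mRNAs. In AT3 tumors 2 of 11 were called lower and 0 higher (median -0.39), against 10.9% and 12.2% of all genes. In M/D tumors 0 were called (6.22% of all genes were). The 2 called in AT3 tumors were Cenpa, the H3 of centromeres (-0.75, SE 0.32), and H2afj (-0.72, SE 0.26). After removal of the trend with length, 1 was lower and 0 higher in AT3 tumors (7.89% of all genes each way). The median was then -0.09, with 6 of 11 below 0. H2afz stood at 7605, 5019 and 13809 without and 8339, 3897 and 4433 with NAM (log2 fold change -0.62, SE 0.41), and H3f3b at -0.39 (SE 0.28), neither of them called. Of 17 histone chaperones, which carry histones to DNA, 2 were called higher (Supt16, 1.20, and Atrx, 1.08) and 1 lower (Asf1a, -0.85) in AT3 tumors. After removal of the trend 1 was higher and 1 lower. Named genes of other function inside the main Hist1 cluster (chr13:21715713-23934913) were few. Of 57, 9 were tested in AT3 tumors, and the median was -0.29. Of these 9, 1 was called lower and 0 higher, against 10.9% and 12.2% of all genes.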

How the data were processed

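Bulk RNA-seq of 14 tumors was analyzed, each mapped to its group by the sample labels. The authors mapped reads with STAR 2.4.0 on mm10, counted them on constitutive gene regions of Mouse FAST DB and divided counts by DESeq2 size factors. The deposited values are this normalized signal per gene. Values were whole multiples of 1 step per tumor, and 100% gave whole reads (within 0.01).

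Since the values are not raw counts, limma 3.58.1 (R 4.3.3) with a mean-variance trend was fitted to log2(value + 1) where the mean of a group reached 10, and p values were adjusted by Benjamini-Hochberg over all genes tested. M/D and AT3 tumors, normalized apart, were compared within a model or by an interaction term. Fits were repeated with a pseudocount of 0.5 or 5, without the filter or with a minimum of 50, TMM factors, edgeR 4.0.16 and DESeq2 1.42.0 on recovered reads, a replicate block, removal of each tumor's trend with length and GC content by a spline (4 degrees of freedom), and leaving out each tumor. Fits were tested on simulated data. Lengths and stem-loops came from the longest GENCODE transcript.

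Members, gene lists and tests were chosen with earlier results of these data known. Genes named are the 10 members with most reads, up to 10 called members per model and 5 for the interaction by smallest p, up to 4 called genes of each other list, 6 fixed genes (Slbp, Npat, Mki67, Pcna, H2afz, H3f3b), and members decided by 1 tumor. Others (Hist1h2aa, Hist1h2ba, Hist1h2af, Hist1h3g, Dut) were named after their values were seen. The sources do not state that tumors are paired, and p values measure the spread between tumors. 0 columns of values were left unmapped. Plots were drawn with matplotlib 3.10.9.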

Additional observations from a re-analysis of the deposited data

Results flagged for a closer look

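Among the 28 groups of 4 M/D tumors examined, each the values of a named member or of the summed reads in 1 group, 6 had a tumor whose gap to the nearest other tumor, divided by the range of the group, exceeded Dixon's 95% limit, whereas chance flags about 1 in 20 such groups. In all 6 it was untreated M/D tumor 3 that stood highest. The ratio of gap to range was 0.864 for Hist1h1c, 0.925 for Hist1h1d, 0.846 for Hist1h4h, 0.906 for Hist1h4i, 0.871 for Hist1h4k and 0.896 for the summed histone reads per 1000000 reads. These values share the same tumor, and members share reads of like sequence, so that they are not independent of each other.

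For 8 of the 56 members tested, the effect of NAM differed between models by the interaction term at the unadjusted threshold, all downward (6.97% of all genes were called lower and 7.9% higher). Only 46 of the 56 passed the filter on low values in M/D tumors, and Hist1h4f, among those called, did not. The AT3 effect minus the M/D effect was -3.31 (log2) for Hist1h4c, -2.32 for Hist1h4d, -1.79 for Hist1h4i, -1.10 for Hist2h2be, -2.26 for Hist4h4, -2.42 for Hist1h2bb, -2.62 for Hist1h4f and -1.84 for Hist1h4k, and none passed after adjustment over all genes (limma, smallest adjusted p 0.246, beside 14.9% of all genes at an unadjusted p of 0.05).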

How the results depend on the processing

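Of the values recomputed for the comparisons, 164 stayed within their limits and 28 moved. Of those for single genes, 853 kept direction and side of the threshold, 104 lost and 20 gained a call, and 48 changed sign. With the trend with length and GC content removed, the number of members called lower was 4 in AT3 tumors (median log2 fold change -0.21), 1 in M/D tumors and 4 in the interaction. In AT3 tumors the sign then changed for Hist1h2bc (0.082), Hist1h4k (0.0021), Hist2h2aa1 // Hist2h3c1 (0.061), Hist3h2ba (0.27), H2afz (0.015), Mki67 (-0.41), Pcna (0.21) and Slbp (0.082), and in M/D tumors for Hist1h1c (0.17). In a fit chosen after seeing the data, with member length counted to the end of the stem-loop, 3 members were lower and 1 higher in AT3 tumors (median -0.11), and the sign changed for Hist1h1c (0.28), Hist1h2bc (0.080), Hist1h4k (0.0032), Hist2h2aa1 // Hist2h3c1 (0.076), Hist3h2ba (0.34), H2afz (0.014), Mki67 (-0.41), Pcna (0.21) and Slbp (0.081). In M/D tumors Hist1h2bc was at -0.026 with TMM factors, and Hist1h1d at -0.95 with edgeR and -0.94 with DESeq2. Over members with a mean of at least 50, r with the replication and mitosis levels was -0.35 and -0.26 in M/D tumors. With the median transcript length, rho in AT3 tumors was 0.34. The cause of these changes was not tested.

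With each tumor left out in turn, 0 to 6 members were called higher and 0 to 1 lower in M/D tumors. The number lower was 6 to 24 in AT3 tumors and 3 to 16 in the interaction. Of all genes, 1.81% to 5.5% were called higher and 1.62% to 6.92% lower in M/D tumors. The share lower was 3.69% to 17.5% in AT3 tumors and 3.84% to 9.98% in the interaction. In M/D tumors the log2 fold change then ranged from -0.47 to 0.60 for Hist1h1c, -0.48 to 1.08 for Hist1h1d, -0.43 to 0.42 for Hist1h2bc, -1.07 to 0.0028 for Hist1h4h, -0.52 to 0.20 for Hist2h2aa1 // Hist2h3c1, -0.32 to 0.44 for Pcna, -0.39 to 0.38 for Mki67, -0.070 to 0.27 for Npat, -0.018 to 0.59 for H2afz and -0.039 to 0.77 for Slbp, and in AT3 tumors from -0.18 to 0.027 for Slbp.

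Groups share replicate numbers, but deviations of same-numbered tumors correlated at 0.11, -0.444, -0.216 and -0.186 in M/D and at 0.126, 0.256 and -0.16 in AT3 tumors, and not every tumor correlated best with its own number, so that the numbers were not taken as pairs. With the replicate number as a block, 0 members were higher in M/D tumors, 22 were lower in AT3 tumors (12.3% of all genes) and 6 were lower in the interaction (5.98% of all genes). At an adjusted p of 0.05 (limma), 2 of 56 members and 1296 of 19281 genes passed in AT3 tumors. Members with few reads limit precision, as do 3 or 4 tumors per group.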
